A study of Mus musculus with 6 samples.

Results

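The genes described are 9 members of the tumour necrosis factor (TNF) superfamily, followed in mouse dorsal root ganglia after vincristine: the ligand genes Tnfsf12 (TWEAK) and Tnf, and the receptor genes Tnfrsf12a, Tnfrsf1a, Tnfrsf1b, Tnfrsf21, Fas, Tnfrsf11b and Tnfrsf19. They were taken by symbol and were chosen by their measured expression in vincristine against vehicle and by their place in the family. They are 9 of the 38926 gene symbols in the count tables. All 9 of 9 had enough reads to enter the test over 16706 genes. Because that difference was known when they were chosen, their fold changes, adjusted p-values and counts of calls describe them and support nothing. All 6 samples came from female C57BL/6 wild-type mice of 8 to 10 weeks, and each sample was a pool of ganglia of lumbar levels 3, 4 and 5 from 4 animals, taken on the side of the treated paw. The 3 vehicle samples came from animals given vehicle. The 3 vincristine samples came from animals that had received vincristine into the paw, 40 µg in all per the labels, whereas 10 µg stands in the table names. Vincristine is a chemotherapy drug that binds tubulin and is known for peripheral neuropathy. A pool gives no value for a single animal.

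TNF superfamily ligands are made mostly as membrane proteins that act as trimers, and their receptors pass the signal on through TRAF adaptors to NF-kB and kinases, or, where they carry a death domain, through adaptors such as TRADD and FADD to caspases. TWEAK binds the small receptor Fn14, encoded by Tnfrsf12a, which is known to be low in healthy tissue and induced by injury, and which promotes outgrowth of neurites in culture. TNF, a cytokine of macrophages, acts on TNFR1 (Tnfrsf1a), which has a death domain and is widely made, and on TNFR2 (Tnfrsf1b), which has none; TNF signalling in sensory ganglia is known for its part in pain after nerve injury.

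Libraries held 12374331 to 26346304 reads counted in genes, the fewest in vincristine replicate 1. Of the 8 sensory neuron markers 8 were detected, with summed levels of 4801 to 6287 CPM (reads of a gene scaled by TMM-adjusted library size) in vehicle and of 2332 to 6507 in vincristine, so the defining markers of the labelled tissue were present. The lowest of these sums belonged to vincristine replicate 1, which also stood apart on the first principal component (56.4% of the variance). The same library had the highest sums of neutrophil and red cell markers, and the members' fold changes are given with and without it. In bulk tissue, fewer cells of a type and less RNA per cell cannot be told apart, here and for every result that follows.

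RefSeq promoter windows on GRCm38.p6 were at hand for 7 of the 9 genes, those other than Tnfsf12 and Tnfrsf11b. Those of Tnfrsf12a, Tnf and Fas are shown because these were the 3 members of largest log2 fold change. Each stretch is the part of the RefSeq window that lies before the outermost GENCODE start of the gene. The window of Tnfrsf12a is the minus strand of chr17:23677469-23677699, that of Tnf the minus strand of chr17:35202008-35202257 and that of Fas the plus strand of chr19:34290409-34290658. Capitals mark any match to 5 motifs searched on both strands. These were the AP-1 site TGANTCA, the cAMP response element TGACGTCA, the GC box GGGCGG, the TATA box TATAAA and an NF-kB string. That string is narrower than the NF-kB consensus. Other forms of the NF-kB site were not searched for, so their absence from these stretches is not shown. GC boxes of Tnfrsf12a lie side by side near the start, without sharing bases.
Tnfrsf12a: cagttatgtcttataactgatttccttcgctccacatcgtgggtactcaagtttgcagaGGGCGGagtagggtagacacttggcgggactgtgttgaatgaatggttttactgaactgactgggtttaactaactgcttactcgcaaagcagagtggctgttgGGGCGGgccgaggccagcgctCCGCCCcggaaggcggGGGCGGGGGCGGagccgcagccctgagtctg
Tnf: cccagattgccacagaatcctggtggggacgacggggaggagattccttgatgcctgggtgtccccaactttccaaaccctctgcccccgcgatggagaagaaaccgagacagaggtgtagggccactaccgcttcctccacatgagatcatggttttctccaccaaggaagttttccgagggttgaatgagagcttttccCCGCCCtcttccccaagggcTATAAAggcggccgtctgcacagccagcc
Fas: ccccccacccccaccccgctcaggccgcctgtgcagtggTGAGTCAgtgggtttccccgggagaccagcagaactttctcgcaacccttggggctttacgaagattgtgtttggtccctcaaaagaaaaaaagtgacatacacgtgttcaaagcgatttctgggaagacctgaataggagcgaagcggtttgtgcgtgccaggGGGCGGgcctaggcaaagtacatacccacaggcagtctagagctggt
The stretch before Tnfrsf12a held 5 GC boxes, a number reached by 1.93% of the 32851 RefSeq windows of 250 bases, and none of the other 4 motifs. That of Tnf held 1 TATA box and 1 GC box, which 12.4% and 32.7% of all windows hold. That of Fas held 1 AP-1 site and 1 GC box. Of all windows 6.75% hold that AP-1 site, 1.55% the cAMP response element and 0.356% the NF-kB string searched. A match describes the letters of a window and does not show that a factor binds there.

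Tnfrsf12a was the member with the largest difference. The gene lies on chromosome 17 from 23675445 to 23677468 (minus strand, protein-coding, GENCODE M21 on GRCm38), and its exons overlap those of no other gene in that annotation. Its level was 5.88, 4.64 and 4.199 CPM in vehicle replicates 1, 2 and 3, from 105, 89 and 84 reads. In vincristine replicates 1, 2 and 3 it was 18.7, 21.5 and 24.4 CPM, from 241, 412 and 633 reads. The lowest vincristine sample was thus above the highest vehicle sample, and the spread within either group was small beside the gap. The group means were 4.91 ± 0.873 and 21.5 ± 2.87 CPM (SD, n = 3 per group). Its log2 fold change was 2.14 ± 0.18 (SE), or 4.398-fold, with an adjusted p of 0.0112 by edgeR's quasi-likelihood test over all genes. Tnfrsf12a was 1 of 9 members past the threshold of 0.05 and 0 of 9 passed it in the lower direction, where 0.359% of all genes tested passed in either direction, 0.293% higher and 0.0658% lower. DESeq2 called 2 of the 9, Tnfrsf12a and Tnf, where it called 2.84% of genes. The size of the Tnfrsf12a difference hardly moved when a library was left out, but the edgeR call did: the log2 fold change was 2.28, 2.11 and 2.03 without vehicle replicates 1, 2 and 3 (edgeR adjusted p = 0.107, 0.0730 and 0.126) and 2.14 without vincristine replicate 2 (edgeR adjusted p = 0.0502). It was 2.23 without vincristine replicate 1 and 2.03 without vincristine replicate 3 (edgeR adjusted p = 0.00123 and 0.0264). Over all genes edgeR called 0 without vehicle replicate 1, 0 without replicate 2 and 0 without replicate 3. It called 346, 6 and 18 without vincristine replicates 1, 2 and 3.

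**Figure D1:**
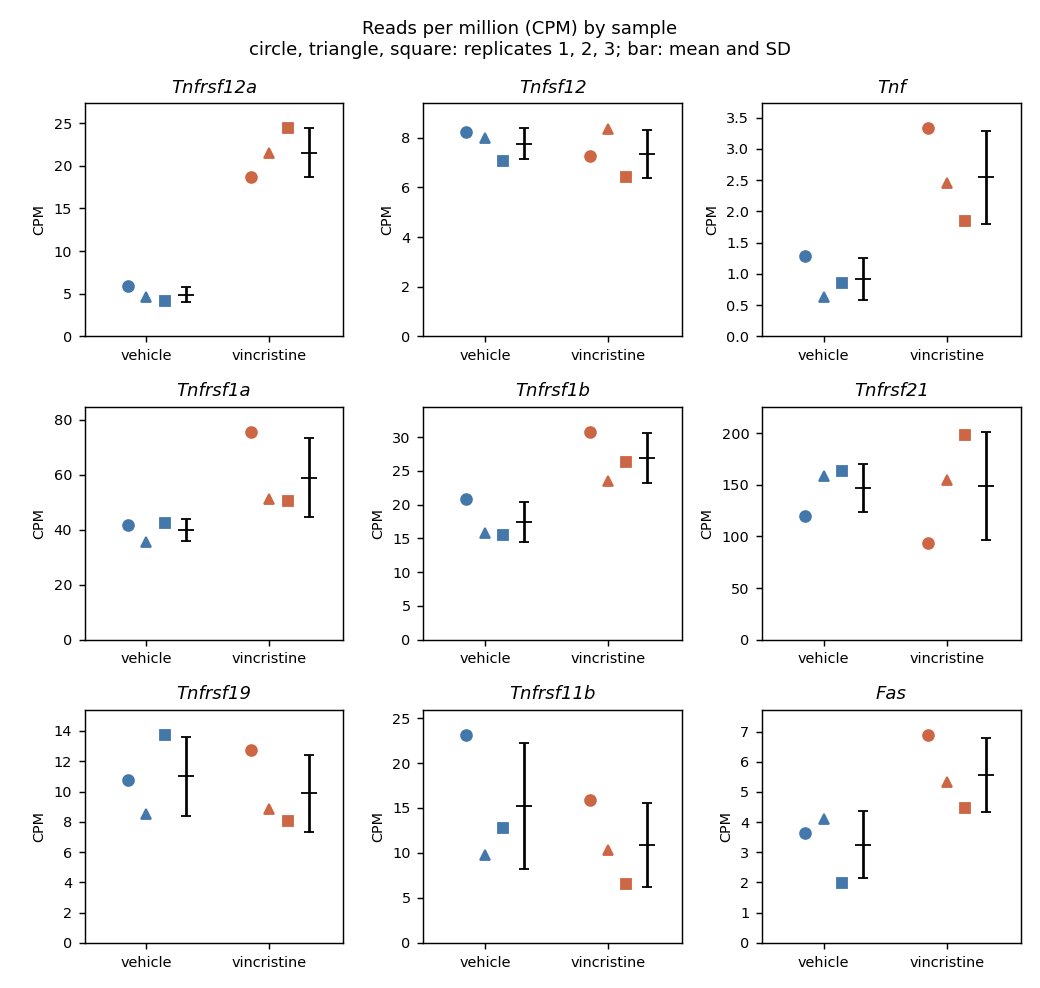
Level of each of the 9 genes in CPM (y axis, from 0) in the 3 vehicle samples (blue) and the 3 vincristine samples (orange), with the mean and SD as a black bar. Tnfrsf12a sits between 4.199 and 5.88 CPM in vehicle and between 18.7 and 24.4 CPM in vincristine, while the groups of Tnfsf12, Tnfrsf21, Tnfrsf19 and Tnfrsf11b overlap.

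Tnfsf12 encodes TWEAK, the ligand of that receptor, and its group means lay close together. Its level was 8.23, 7.97 and 7.05 CPM in the vehicle samples and 7.28, 8.35 and 6.40 CPM in the vincristine samples. The groups overlapped, and the log2 fold change was -0.08 ± 0.16 (edgeR adjusted p = 0.883; -0.077 without vincristine replicate 1). Per kilobase of exon, Tnfrsf12a had 0.560, 0.456 and 0.467 reads for each read of Tnfsf12 in the vehicle samples, and 2.01, 2.02 and 2.99 in the vincristine samples. With all exons merged, the receptor transcript was thus the lower of the pair in all vehicle samples and the higher in all vincristine samples. By the length of the longest transcript, chosen after seeing the data, the ratio was 1.04, 0.848 and 0.869 in vehicle and 3.74, 3.76 and 5.56 in vincristine, so that which of the pair was lower in vehicle depended on the length used. Tnfsf12 lies on chromosome 11 from 69686250 to 69695849, and 48.3% of its exon bases are shared, on the same strand, with the read-through gene Tnfsfm13. How reads of those exons were assigned is unknown here, so its level is less certain than that of the other 8 genes. CD163, a scavenger receptor of macrophages that is known to take up TWEAK, is listed below with the genes of shedding.

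Tnf itself was a gene of few reads. There were 23, 12 and 17 reads in the vehicle samples and 43, 47 and 48 in the vincristine samples, or 1.29, 0.625 and 0.850 CPM against 3.33, 2.45 and 1.85 CPM. The groups did not overlap, as was so, with vincristine above, for 5 of the 9 members and for 11.5% of all genes tested. The log2 fold change was 1.44 ± 0.36; edgeR did not call it (adjusted p = 0.200), and DESeq2 did (adjusted p = 0.0316). Without vincristine replicate 1 the log2 fold change was 1.22. The edgeR adjusted p ranged from 0.159 to 0.657 with 1 library left out. The DESeq2 call was lost without vehicle replicate 2 or 3 (DESeq2 adjusted p = 0.373 and 0.226) and without vincristine replicate 1 or 2 (DESeq2 adjusted p = 0.210 and 0.136).

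The genes of both TNF receptors had higher values in all vincristine samples than in any vehicle sample, with smaller fold changes than Tnfrsf12a, and neither was called. Tnfrsf1a was at 41.7, 35.4 and 42.4 CPM in vehicle and at 75.7, 51.0 and 50.3 CPM in vincristine, a log2 fold change of 0.56 ± 0.18 (edgeR adjusted p = 0.316). Vincristine replicate 1 stood well above the other two, and without it the difference was 0.35. Tnfrsf1b was at 20.8, 15.8 and 15.5 CPM in vehicle and at 30.8, 23.5 and 26.3 CPM in vincristine, a log2 fold change of 0.63 ± 0.16 (edgeR adjusted p = 0.218; 0.52 without vincristine replicate 1).

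Fas encodes the death receptor CD95. It was at 3.64, 4.12 and 1.999 CPM in vehicle and at 6.89, 5.33 and 4.47 CPM in vincristine. The lowest vincristine sample was barely above the highest vehicle sample, and the log2 fold change of 0.76 ± 0.31 was not called (edgeR adjusted p = 0.410; 0.59 without vincristine replicate 1). The gene of its ligand, Fasl, had 10 reads over the vehicle samples and 15 over the vincristine samples, too few to enter the test.

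Tnfrsf21, the gene of death receptor 6, which has been linked to axon degeneration, had the highest mean level per kilobase of exon in either group. Its level was 120, 158 and 163 CPM in vehicle and 94.0, 155 and 199 CPM in vincristine. The vincristine samples enclosed the whole range of vehicle, and the log2 fold change was 0.02 ± 0.27 (edgeR adjusted p = 0.986); its sign turned in 8 of 19 alternatives. The lowest value was that of vincristine replicate 1, where the summed level of sensory neuron markers was also lowest, at 2332 CPM against 5263 and 6507 CPM in vincristine replicates 2 and 3. Whether that difference plays a part in the spread of Tnfrsf21 was not tested. Without vincristine replicate 1 the log2 fold change was 0.27 ± 0.16 (edgeR adjusted p = 0.566).

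Tnfrsf11b encodes osteoprotegerin, a soluble decoy receptor for RANKL and TRAIL. It was the most variable member, at 23.1, 9.80 and 12.8 CPM in vehicle and at 15.9, 10.3 and 6.51 CPM in vincristine. The log2 fold change of -0.50 ± 0.41 was within that spread (edgeR adjusted p = 0.682), and it was -0.07 without vehicle replicate 1, the highest sample, -0.87 without vincristine replicate 1 and -0.22 without vincristine replicate 3. The coefficient of variation between vehicle samples was 45.9% for Tnfrsf11b, against 8.04% for Tnfsf12 and 9.75% for Tnfrsf1a. Tnfrsf19, an orphan receptor gene also called Troy that is active in the developing nervous system, was at 10.8, 8.49 and 13.7 CPM in vehicle and at 12.8, 8.82 and 8.05 CPM in vincristine (log2 fold change -0.16 ± 0.24, edgeR adjusted p = 0.832; -0.385 without vincristine replicate 1). Its groups overlapped.

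The median log2 fold change of the 9 members was 0.56, and 0.35 without vincristine replicate 1. Of the 9 members 6 were positive either way, and of all 16706 genes tested 8241 were positive with all libraries. The members with higher values in vincristine differed in which library was highest. Against the vehicle mean, Tnf was higher by 1.85, 1.41 and 1.01 on the log2 scale in vincristine replicates 1, 2 and 3, and Fas by 1.08, 0.71 and 0.46. Tnfrsf1a was higher by 0.93, 0.36 and 0.34 and Tnfrsf1b by 0.83, 0.44 and 0.60. Each of these 4 genes was thus highest in vincristine replicate 1, whereas Tnfrsf12a was lowest there, at 1.93 against 2.13 and 2.31. Neutrophil markers had medians of 2.84, 1.15 and 1.40 in the same samples, red cell markers of 2.14, 0.91 and 1.18, and macrophage markers of 0.91, 0.31 and 0.51. Of the 8 neutrophil markers 8 had a positive log2 fold change and 7 an unadjusted p under 0.05 (edgeR called 0 and DESeq2 7), with summed levels of 740 to 1282 CPM in vehicle and 2295 to 7160 CPM in vincristine. Of the 6 macrophage markers 6 were positive, 5 with an unadjusted p below 0.05 (edgeR called 0 and DESeq2 2), with summed levels of 228 to 278 CPM and 313 to 434 CPM. Of the 5 red cell markers 5 were positive and 5 had an unadjusted p under 0.05 (edgeR called 0 and DESeq2 4), with summed levels of 974 to 1348 CPM and 1987 to 4788 CPM. None of these markers was at 0 over all 6 samples together. The log2 fold change of Tnfrsf12a was 2.23 without vincristine replicate 1 and 2.14 with it. The medians of these markers were above the vehicle mean in vincristine replicates 2 and 3 also. The part of these cell types in the values of Tnfrsf12a, Tnf, Fas, Tnfrsf1a and Tnfrsf1b was not tested. Medians of T cell (1.06), endothelium (0.30), satellite glia (0.23), fibroblast (0.22) and B cell markers (-3.08) were also highest in vincristine replicate 1. Those of Schwann cell and skeletal muscle markers were highest in vincristine replicate 2. Tnfrsf19 (0.22) and Tnfrsf11b (0.06) were highest in vincristine replicate 1 too. The part of these other cell types was not tested either.

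**Figure D2:**
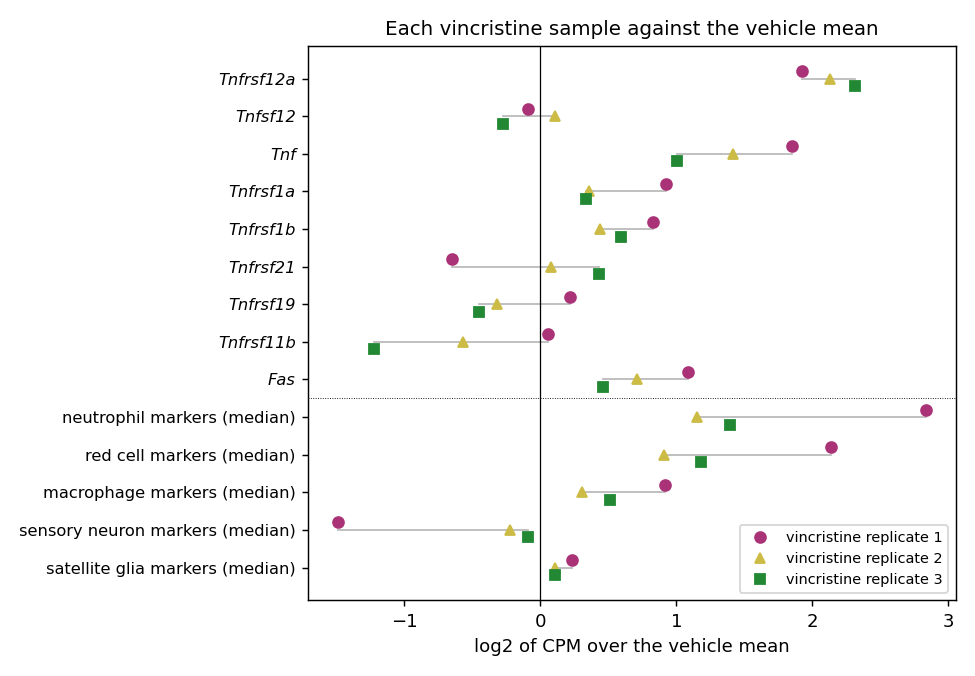
Log2 of the level in each vincristine sample over the vehicle mean (x axis), for the 9 genes above the dotted line and for the median of 5 marker lists below it; the symbol marks the replicate. Vincristine replicate 1 (circle) is the highest of the 3 for Tnf, Tnfrsf1a, Tnfrsf1b, Fas, Tnfrsf19, Tnfrsf11b and the neutrophil, red cell, macrophage and satellite glia markers. It is the lowest for Tnfrsf12a, Tnfrsf21 and the sensory neuron markers.

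Levels of different genes were compared only per kilobase of exon (RPKM, with all annotated exons of a gene merged). In vehicle the order was Tnfrsf21 at 35.8 ± 5.76, Tnfrsf1a at 15.4 ± 1.497, Tnfrsf11b at 5.41 ± 2.48, Tnfsf12 at 5.12 ± 0.412, Tnfrsf1b at 4.56 ± 0.783, Tnfrsf12a at 2.54 ± 0.452, Tnfrsf19 at 2.32 ± 0.556, Fas at 1.58 ± 0.539 and Tnf at 0.562 ± 0.206 RPKM (SD, n = 3). Tnfrsf21 and Tnfrsf1a each stood clear of the next gene in every vehicle sample. Tnfrsf11b, Tnfsf12 and Tnfrsf1b overlapped their neighbours, as did Tnfrsf12a, Tnfrsf19 and Fas, so their order within those groups is not set by these samples. In vincristine Tnfrsf12a was at 11.1 ± 1.48 RPKM and in place 3, behind Tnfrsf21 at 36.3 ± 12.8 and Tnfrsf1a at 22.8 ± 5.59, where it had been in place 6 in vehicle. Within vincristine replicate 1, Tnfrsf1a was above Tnfrsf21, at 29.2 against 22.9 RPKM. The place of Tnfrsf12a depends on the length used: with the longest transcript in place of the merged exons its vehicle level was 4.99 RPKM and its place 5. Its annotation includes transcripts that keep introns.

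**Figure D3:**
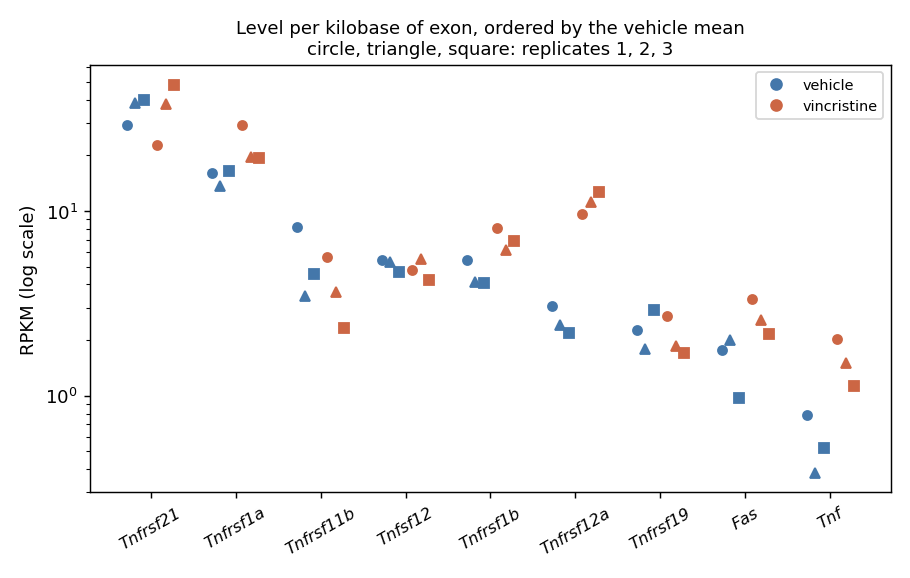
Level per kilobase of exon (RPKM, log axis) of the 9 genes, ordered by their vehicle mean, in each vehicle sample (blue) and vincristine sample (orange). Tnfrsf21 and Tnfrsf1a have the highest means in both groups, and Tnfrsf12a moves from 2.54 to 11.1 RPKM.

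The genes whose values were most like those of Tnfrsf12a included genes known from nerve injury and cell stress. Among 15632 genes averaging 1 CPM or more, Pearson's r of log2 CPM over the 6 samples was highest for Plaur (the urokinase receptor, 0.997), Nts (neurotensin, 0.997), Atf3 (a transcription factor of injured neurons, 0.995), Rin1 (a Ras effector, 0.995) and Gadd45a (a stress-induced growth arrest gene, 0.994). These points share their 2 treatment groups and their library depth. On deviations from the group means r was 0.907, 0.907, 0.803, 0.976 and 0.746 in the same order. The genes were picked on these same 6 samples, so the deviations were part of the choice and are no separate support. Plaur, for instance, was at 7.90, 6.93 and 6.70 CPM in vehicle and at 23.6, 28.7 and 33.0 CPM in vincristine. It was lowest in vincristine replicate 1 and highest in replicate 3, as was Tnfrsf12a. Of the other 8 members Tnfrsf1b (0.888) and Tnf (0.879) came closest over the 6 samples, and r was -0.282 for Tnfsf12. On deviations from the group means r was 0.351 for Tnfrsf1b, 0.043 for Tnf and 0.112 for Tnfsf12.

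**Figure D4:**
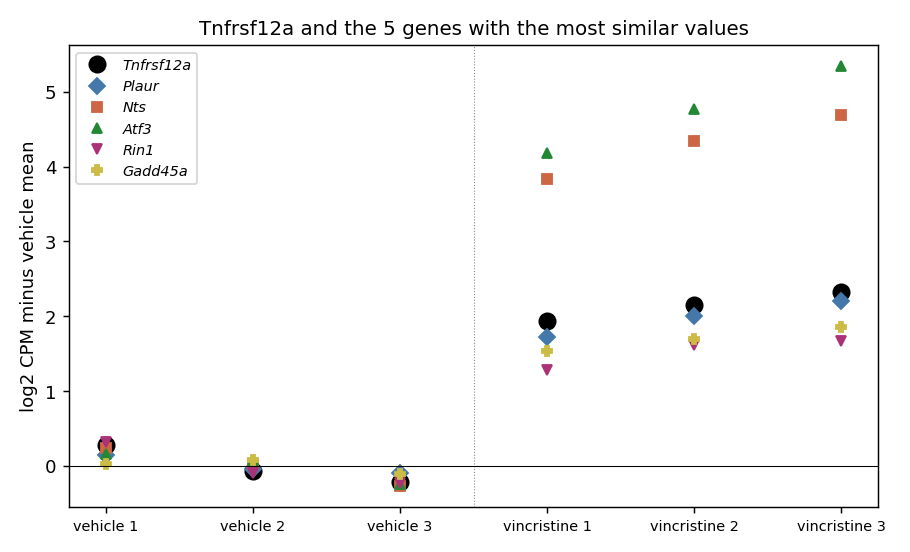
Log2 CPM minus the vehicle mean (y axis) in each of the 6 samples for Tnfrsf12a (black) and the 5 genes of highest Pearson's r with it. All 6 genes are lowest in vincristine replicate 1 and highest in vincristine replicate 3 among the vincristine samples, at sizes from about Rin1 (log2 fold change 1.52) to Atf3 (4.83).

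Across the rest of the pathway, 1 of 101 tested genes in 7 lists was called by edgeR and it was higher (Csf1); 0 were called lower. At an unadjusted edgeR p under 0.05 there were 18 higher and 1 lower. Of all 16706 genes tested, 1353 were higher and 547 lower at such a p, or 11.4% in either direction. Among the genes of the lists DESeq2 called 7 higher and 1 lower, where it called 2.84% of all genes it tested. The groups did not overlap for 26 of the 101 with vincristine above and for 3 with vincristine below, where 11.5% of all genes tested were above and 9.51% below. The median log2 fold change was 0.18, against -0.0033 over all genes tested. Of the 101 genes 75 had a positive log2 fold change, against 8241 of all 16706 genes tested. Without vincristine replicate 1 edgeR called 6 genes of the lists, 5 higher and 1 lower, among them Csf1 and Tnfrsf14 (higher) and Tnfrsf13c (lower). Over all genes it then called 346, of which 303 were higher, against 60 with all libraries. Without vehicle replicate 1, 2 or 3, or vincristine replicate 2 or 3, edgeR called 0 genes of the lists, with 14 to 23 with an unadjusted p below 0.05 and 6 to 8 called by DESeq2. Over all genes edgeR called 0, 0, 0, 6 and 18 in these settings.

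Of the other receptor genes of the superfamily, 16 of 21 were tested, with 8 positive and 8 negative log2 fold changes and a median of 0.10, which was -0.04 without vincristine replicate 1. EdgeR called 0 (of genes with an unadjusted p below 0.05, 3 were higher and 1 lower). The calls of DESeq2 were 2, of which 1 was higher, where it called 2.84% of all genes it tested. Tnfrsf14, the gene of the herpesvirus entry mediator found on many leukocytes, was at 8.12, 6.77 and 8.95 CPM in vehicle and at 33.5, 15.3 and 16.8 CPM in vincristine (log2 fold change 1.45 ± 0.32, edgeR adjusted p = 0.169; 1.01 without vincristine replicate 1). As with the neutrophil markers above, its highest value was in vincristine replicate 1, and the part of those cells was not tested. Tnfrsf13c, the gene of the BAFF receptor of B cells, was at 2.75, 1.77 and 3.25 CPM in vehicle and at 0.774, 0.313 and 0.501 CPM in vincristine (log2 fold change -2.33 ± 0.39, edgeR adjusted p = 0.0861). Beside it, 4 of 4 B-cell markers fell by edgeR, their summed level being 27.3 to 55.0 CPM in vehicle and 2.61 to 5.34 CPM in vincristine. The part of B-cell number in Tnfrsf13c was not tested.

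Of the other ligand genes 9 of 16 had enough reads to be tested, with a median log2 fold change of 0.19, and -0.14 without vincristine replicate 1. EdgeR called 0, 1 was higher with an unadjusted p below 0.05, and DESeq2 called 0. That gene was Tnfsf14 (LIGHT, a ligand of the Tnfrsf14 product), at 1.85, 0.521 and 1.40 CPM in vehicle and 6.04, 1.93 and 2.81 CPM in vincristine (log2 fold change 1.49 ± 0.56, edgeR adjusted p = 0.380). Tnfsf8, the CD30 ligand gene, had a log2 fold change of 1.01 ± 0.45 (edgeR adjusted p = 0.461) at means of 0.456 and 0.952 CPM.

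The adaptors, kinases and ubiquitin ligases that carry the receptors' signals were all tested. Of the 32 genes 23 had a positive log2 fold change, and the median was 0.12, or 0.05 without vincristine replicate 1. The groups did not overlap for 8 with vincristine above and for 0 with vincristine below, against 11.5% and 9.51% of all genes tested. EdgeR and DESeq2 called 0, and 2 were higher with an unadjusted p below 0.05. These were Ripk3, the kinase gene of necroptosis, with a log2 fold change of 0.94 ± 0.27 (edgeR adjusted p = 0.257), and Traf1, an adaptor gene, with 0.45 ± 0.18 (edgeR adjusted p = 0.418). Ripk3 was at 1.34, 1.15 and 1.20 CPM in vehicle and at 2.94, 2.45 and 1.77 CPM in vincristine.

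The NF-kB subunits and their inhibitors were 13 of 13 positive in log2 fold change, with a median of 0.26, or 11 of 13 and 0.16 without vincristine replicate 1. EdgeR called 0 and DESeq2 0, and 3 were higher with an unadjusted p below 0.05. Of all 16706 genes tested 8241 had a positive log2 fold change, and 1353 were higher at such a p. Tnip2, an inhibitor gene that acts with A20, was at 8.23, 7.76 and 8.60 CPM in vehicle and at 13.8, 12.3 and 10.7 CPM in vincristine (log2 fold change 0.58 ± 0.14, edgeR adjusted p = 0.201). Rela, the p65 subunit gene, was at 35.8, 31.2 and 31.3 CPM in vehicle and at 38.9, 40.5 and 37.999 CPM in vincristine, with a log2 fold change of 0.26 ± 0.10 (edgeR adjusted p = 0.404).

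Of 20 genes known to respond to TNF or TWEAK 17 were tested, 14 had a positive log2 fold change, and the median was 0.63, or 0.40 without vincristine replicate 1. EdgeR called 1, Csf1, the macrophage growth factor gene, which was at 24.7, 23.7 and 27.3 CPM in vehicle and at 43.5, 48.0 and 53.2 CPM in vincristine (log2 fold change 0.94 ± 0.12, edgeR adjusted p = 0.0308). The Csf1 call held without vincristine replicate 1 (edgeR adjusted p = 0.00525). It was lost without vehicle replicate 1, 2 or 3 and without vincristine replicate 2 or 3 (edgeR adjusted p = 0.237, 0.258, 0.182, 0.112 and 0.106), at log2 fold changes of 0.86 to 0.995. Over all genes edgeR called 0, 0, 0, 6 and 18 in these settings. DESeq2 called 5 genes of this list, where it called 2.84% of all genes it tested. Besides Csf1 the 5 were, named after their values were seen, Lcn2 (edgeR log2 fold change 2.17), Mmp9 (1.74), Tnfaip2 (1.46) and Ccl2 (1.09). Lcn2 and Mmp9 encode proteins stored in neutrophil granules, and both were highest in vincristine replicate 1, at 412 and 224 CPM, as were the neutrophil markers, whose part in these values was not tested. Without that library edgeR called both, at log2 fold changes of 1.53 (adjusted p = 0.00659) for Lcn2 and 1.29 (adjusted p = 0.0446) for Mmp9, so that 3 genes of the list were then called. Over all genes edgeR then called 346, against 60 with all libraries. Csf1 was lowest in vincristine replicate 1 among the vincristine samples.

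**Figure D5:**
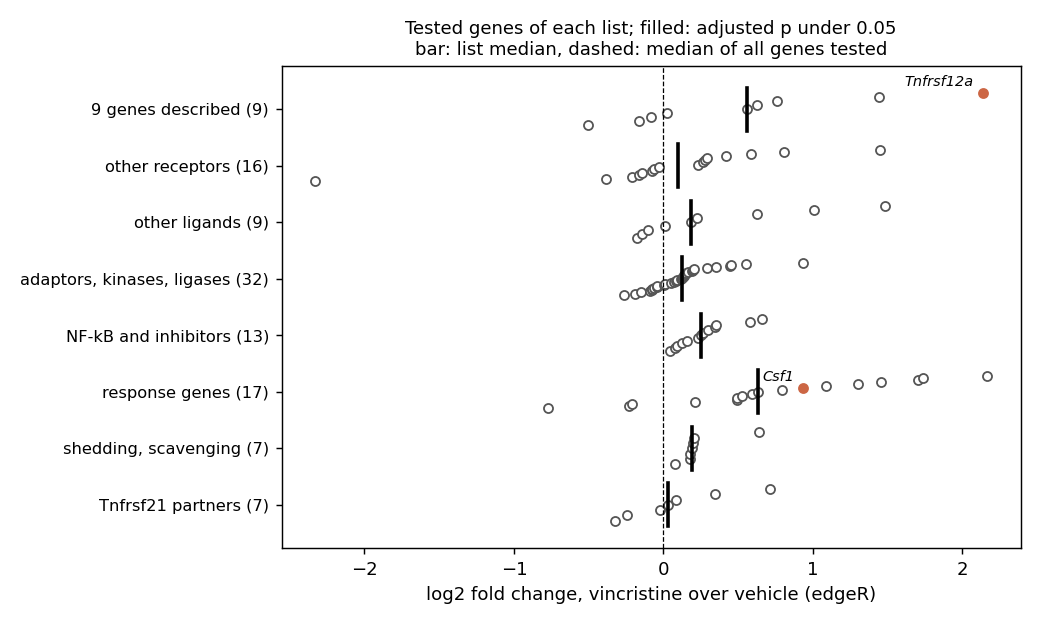
Log2 fold change of each tested gene (x axis, vincristine over vehicle, edgeR) in the 9 genes described and 7 lists of the pathway, with the number tested in brackets; filled points passed the threshold, black bars are list medians and the dashed line is the median of all genes tested. Only Tnfrsf12a and Csf1 are filled among the genes drawn, and the medians run from 0.03 for the Tnfrsf21 partners to 0.63 for the response genes.

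Among 7 genes of ligand shedding and scavenging, 7 had a positive log2 fold change with a median of 0.19 (0.07 and 6 of 7 without vincristine replicate 1). Of all 16706 genes tested 8241 were positive. The rest of this paragraph is about these lists only. EdgeR and DESeq2 called 0, and 1 was higher with an unadjusted p below 0.05. This was Rhbdf2, whose product brings the TNF-releasing protease ADAM17 to the cell surface, at 12.5, 9.90 and 10.6 CPM in vehicle and at 20.6, 15.2 and 15.8 CPM in vincristine (log2 fold change 0.64 ± 0.17, edgeR adjusted p = 0.219). Furin, a protease gene, had a log2 fold change of 0.18 ± 0.11 (edgeR adjusted p = 0.575), and Cd163 of 0.20 ± 0.22 (edgeR adjusted p = 0.764). The 7 genes for partners and effectors of Tnfrsf21, which include its reported ligand gene App, had 4 positive log2 fold changes and a median of 0.03 (5 of 7 and 0.09 without vincristine replicate 1). Casp6, a caspase gene linked to axon degeneration, had a log2 fold change of 0.35 ± 0.18 (edgeR adjusted p = 0.529), and App of 0.03 ± 0.15 (edgeR adjusted p = 0.958) at about 772 and 788 CPM.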

How the data were processed

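Total RNA of 6 pools of ganglia was made into stranded libraries and read as single ends of 75 nucleotides, per the labels' protocols. The tables deposited by the authors hold unnormalized read counts for each gene symbol. The authors used STAR, SAMtools and HTSeq with mm10 (GRCm38), per the submitters' processing notes. Not given in the sources used here: versions, annotation and strand setting. The counter's summary lines were left out. Of tallied alignments, 14.8% to 24.8% were assigned to no counted feature and 31.1% to 40.5% were not unique. The 24.8% was that of vincristine replicate 1, and the next highest share was 17.0%, in vincristine replicate 2.

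Groups and replicate numbers came from the sample titles; the table names number vehicle replicate 3 as 4. Each pool is a separate biological replicate per the labels. Counts were fitted in edgeR 4.0.16 (R 4.3.3): filterByExpr with a minimum count of 10, TMM scaling, robust quasi-likelihood test, treatment only, two-sided, Benjamini-Hochberg adjustment over 16706 genes, threshold 0.05. The SE is the log2 fold change divided by the square root of F. Log2 CPM used a prior count of 2. DESeq2 1.42.0 and limma 3.58.1 (voom) were alternatives, as were other scalings, filters, a replicate block and leaving out each library; DESeq2 with a library left out, and the longest transcript for the ratio of Tnfrsf12a to Tnfsf12, were added after the data were seen. On simulated counts over 16550 genes edgeR recovered 0 of 50 genes changed 1.5-fold, 28 of 50 changed 2-fold, 40 of 50 changed 4-fold and 48 of 50 changed 8-fold, with 12 false calls. Replicates differed by more than sampling noise, so none was counted as a copy.

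The members and lists were chosen with earlier results of these data known. Named were the 9 members, every called gene of a list or else the 2 of smallest p, and the 5 genes most like Tnfrsf12a. Outside this rule are Fasl, Cd163, App and the genes marked as named after their values were seen. One gene that this rule names is not reported here. Gene lengths and positions are from GENCODE M21, and promoters from RefSeq (GRCm38.p6).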

Additional observations from a re-analysis of the deposited data

How the results depend on the processing

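The number of called genes moved with the method and with each library, from 60 over all genes to 551 by DESeq2 and 99 without a filter on low counts. EdgeR called 0 to 346 genes with 1 library left out, where 1063 to 2357 had an unadjusted p below 0.05, and DESeq2 206 to 600 (316, 206 and 319 without vehicle replicates 1, 2 and 3; 600, 576 and 544 without vincristine replicates 1, 2 and 3). Among the 9 members 1 was called by edgeR and 2 by DESeq2, with 0 to 1 by edgeR and 1 to 3 by DESeq2 when a library was left out. Of the pathway lists' genes 8 were called by DESeq2 and 2 without the filter, with 0 to 6 by edgeR and 6 to 9 by DESeq2 when a library was left out.

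Tnfrsf12a kept a positive log2 fold change in all 19 alternatives, from 2.02 to 2.28. With a library left out it was 2.03 to 2.28 by edgeR, where the adjusted p ran from 0.00123 to 0.126, and 2.02 to 2.27 by DESeq2, which called it each time. In the other settings it stayed below the threshold, with 0.0133 the largest adjusted p. Tnf, Tnfrsf1a, Tnfrsf1b and Fas stayed positive and Tnfrsf11b negative in all 19. Tnf was past the threshold in 3 of them, all by DESeq2, and Tnfrsf1b in 1, DESeq2 without vehicle replicate 1.

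The sign turned only for members near 0. Tnfrsf21 was at -0.076 with limma-voom, and between -0.25 and 0.27 by edgeR and -0.26 and 0.26 by DESeq2 with a library left out; it was -0.11 and -0.13 without vehicle replicate 1, -0.0085 and -0.017 without vincristine replicate 2. Tnfsf12 ran from -0.178 to 0.012 by edgeR, positive without vincristine replicate 3. Tnfrsf19 ran from -0.385 to 0.028 by edgeR, positive without vehicle replicate 3, where DESeq2 gave 0.015. The cause of these shifts was not tested. The median r of the 5 genes most like Tnfrsf12a was 0.995, and 0.907 on deviations from the group means. Since the genes were picked on the same samples, the second value is no separate support. With the longest transcript as the length, Tnfrsf12a was in place 5 of the vehicle order instead of 6.

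Whether same-numbered samples were paired cannot be told from these data. Their deviations from the group means had correlations of 0.43, 0.25 and -0.09 for replicates 1, 2 and 3. With the replicate block edgeR called 261 genes, against 60 without it. Among the 261 were 5 genes of the pathway lists and 1 member. Tnfrsf12a was then at 2.14 (edgeR adjusted p = 0.0119) and Tnfrsf21 at -0.030.

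Depth limits Tnf most, with 52 reads over the vehicle samples, and 7 of the 16 other ligand genes were too low to test. Groups of 3 pools leave 4 residual degrees of freedom.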
